A study of Mus musculus with 12 samples.

Results

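In splenic B cells of lupus-prone mice, 1024 loci without a gene name gave reads in every one of 8 RNA sequencing libraries. They were chosen from the measured values: a locus was kept if its name field was empty and its level was above 0 in all 8 libraries of batches 1 and 2, in any deposited table of the library. Levels are in FPKM, that is, fragments scaled to the length of the locus and the depth of the library. Loci with a midpoint in 3 intervals on chromosome 12 (113.2 to 116.1 Mb), 6 (67.5 to 70.8 Mb) and 16 (19.0 to 19.3 Mb), which hold the immunoglobulin genes, were left out, which removed 23 of 1047. The 1024 loci were taken from 461263 unnamed and 506504 loci in all, with positions on the mouse build GRCm38. Of the unnamed loci outside these intervals, 310370 were at 0 in all 8 libraries, 148532 were above 0 in 1 to 7 of them, and 1269 of those were above 0 in 7.

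The B cells were sorted by flow cytometry from spleens of 6-month-old female mice bred on C57BL/6J. Germinal centre (GC) B cells stained for B220, GL7 and CD95, and non-GC B cells for B220 but neither GL7 nor CD95. All mice carried Sle1b, a lupus susceptibility interval, and the genotypes were B6.Sle1b (here Sle1b) and B6.Sle1b.IFNaR1-/- (labelled Ifnar1KO), in which Ifnar1, a subunit gene of the receptor for type I interferon, is knocked out. Each of the 4 groups had 3 libraries, and replicate 1, 2 or 3 of a group is its library in batch 1, 2 or 3, a batch being the libraries that the deposited tables compare with each other; the labels do not say what else they share. The study asked how signalling through this receptor affects B cell selection in autoimmune-prone germinal centres. The labels do not say that replicates came from separate animals, so p-values measure only how much these samples vary, and that may be technical.

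As background, an assembler such as Cufflinks joins aligned reads into loci without needing a gene model. A locus without a name can therefore hold an exon that the annotation lacks, a long noncoding RNA, RNA that runs past the end of a gene, intron sequence of unspliced RNA, or RNA made at an enhancer. Germinal centres are the sites where activated B cells divide and mutate their antibody genes through the enzyme AID, and where genes of recirculating B cells, such as the homing receptors Ccr7 and S1pr1, are turned down.

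Sequences are shown for the 4 loci, of 17 leading loci looked up, that overlap a RefSeq promoter window or a GENCODE transcript. They are 2 loci lower in GC cells that end at the promoters of Maml2 and Notch2, and 2 loci higher in GC cells. The latter overlap the transcripts Gm42646 and Gm31718, of which Gm31718 is annotated as a lincRNA. Each is written 5′ to 3′ on the strand of the gene, with bases inside the unnamed locus in capitals. The promoter windows are from RefSeq (GRCm38.p6) and stop at the base before the gene's start, and the transcripts are from GENCODE release M21.
XLOC_453298 at Maml2, window chr9:13297708-13297956, plus strand: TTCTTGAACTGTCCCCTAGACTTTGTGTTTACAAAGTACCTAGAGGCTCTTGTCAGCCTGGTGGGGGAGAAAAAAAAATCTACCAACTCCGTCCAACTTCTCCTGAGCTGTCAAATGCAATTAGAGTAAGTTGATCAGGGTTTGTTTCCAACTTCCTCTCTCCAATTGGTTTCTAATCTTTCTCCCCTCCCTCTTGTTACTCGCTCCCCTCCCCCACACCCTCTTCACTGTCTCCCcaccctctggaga
XLOC_300466 at Notch2, window chr3:98013288-98013526, plus strand: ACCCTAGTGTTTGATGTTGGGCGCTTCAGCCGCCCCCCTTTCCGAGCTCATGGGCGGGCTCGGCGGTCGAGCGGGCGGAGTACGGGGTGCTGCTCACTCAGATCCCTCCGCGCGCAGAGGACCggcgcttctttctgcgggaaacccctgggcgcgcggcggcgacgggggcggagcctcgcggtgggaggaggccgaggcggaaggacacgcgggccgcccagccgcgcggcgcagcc
XLOC_352686 on Gm42646, transcript bases at chr5:65857318-65857617, plus strand: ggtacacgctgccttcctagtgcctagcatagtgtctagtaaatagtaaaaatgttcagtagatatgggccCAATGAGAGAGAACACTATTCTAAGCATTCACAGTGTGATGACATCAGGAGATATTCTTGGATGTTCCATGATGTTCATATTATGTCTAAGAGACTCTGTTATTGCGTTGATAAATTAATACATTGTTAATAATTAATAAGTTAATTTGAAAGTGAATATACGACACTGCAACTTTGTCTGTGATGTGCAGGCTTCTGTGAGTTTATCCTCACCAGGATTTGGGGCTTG
XLOC_448768 on Gm31718, spliced exons within chr8:126841212-126844988, minus strand: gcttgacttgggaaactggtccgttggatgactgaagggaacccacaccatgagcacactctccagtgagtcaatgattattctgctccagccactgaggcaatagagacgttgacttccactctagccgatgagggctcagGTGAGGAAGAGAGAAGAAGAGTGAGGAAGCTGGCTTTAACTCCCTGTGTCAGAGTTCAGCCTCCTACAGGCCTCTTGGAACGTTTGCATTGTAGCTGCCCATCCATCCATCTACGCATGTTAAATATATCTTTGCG
The first 2 loci reach into the window by 236 of 249 and 123 of 239 bases. The Notch2 window holds 34 CG pairs and is 74.1% G or C, and the Maml2 window holds 2 CG pairs and is 47.8% G or C, against a median of 52.4% over 32851 promoter windows. The transcript pieces lie inside their loci for 229 of 300 and 136 of 278 bases. Exon sequence covers 100% of XLOC_352686 but only 8.38% of XLOC_448768.

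The 4 libraries of batch 3 stood apart and are not in the tests. They had 103824 to 207544 unnamed loci above 0, against 9973 to 61450 in the other 8, and the 1024 loci held a median of 0 to 14.2 reads there, against 14.3 to 70.4 (loci over 500 bp, 998 of them). In batches 1 and 2 the GC libraries had more unnamed loci above 0 than the non-GC libraries: 55500 against 9973 and 17423 against 13436 in Sle1b, and 61450 against 17981 and 35205 against 27375 in Ifnar1KO. Reads on the 1024 loci were fewer in GC cells in each of these pairs, at 46200 against 141000 and 154600 against 216000 in Sle1b, and 59300 against 197700 and 78200 against 184800 in Ifnar1KO. The part of this difference in the results below was not tested. All 8 B cell markers were above 0 in all 8 libraries, while none of the 8 erythroid and platelet genes, 2 of 8 T cell genes and 3 of 8 myeloid genes were. Sle1b GC replicate 1 held the highest sums of myeloid genes (169.7 FPKM, against 18.31 to 47.11 in the other 7 libraries; S100a8 60.36 and S100a9 70.03) and of erythroid and platelet genes (97.86 FPKM, against 0 to 26.44; Hbb-bs 38.62). Both lists were lower in Sle1b GC replicate 2, at 18.31 and 0.2381 FPKM. The sums of T cell genes overlapped between the groups (9.827 to 27.82 FPKM). Without Sle1b GC replicate 1, 52 of the 1024 loci passed between GC and non-GC cells in place of 128, in a fit with fewer libraries (28 higher and 24 lower in place of 48 and 80). The part of these markers in the results was not tested further. The summed level of 14 germinal centre genes was 480.7 to 1358 FPKM in GC and 65.3 to 117.1 FPKM in non-GC libraries. Ifnar1 itself measured 14.6 and 36.05 FPKM in Sle1b and 51.2 and 69.1 FPKM in Ifnar1KO non-GC cells, and 8.12 and 9.88 against 14.1 and 15.4 FPKM in GC cells, the opposite of what the label implies, and every genotype direction below rests on the labels. The summed level of 16 interferon-stimulated genes, 5 of them above 0 in all 8 libraries, was 97.11 to 100.4 FPKM in Ifnar1KO against 203.6 to 234.5 FPKM in Sle1b non-GC cells, and 53.62 to 64.87 against 153.2 to 183.9 FPKM in GC cells, with no locus of the list past the threshold between GC and non-GC cells or between genotypes.

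Most of the 1024 loci lay within or near genes. By GENCODE models, 611 (59.7%) were intergenic, 272 (26.6%) intronic and 141 (13.8%) touched an exon. Among the 148532 in 1 to 7 libraries, 89.8% were intergenic, 8.48% intronic and 1.76% exonic. Since the latter are shorter (median 405 bp against 2142.5 bp), loci of at least 1000 bp were also compared: 57.2% of 884 were intergenic, against 83.9% of 8537. Of the intergenic loci, 304 of 611 (49.8%) were within 5 kb of a gene, 171 past its end and 133 before its start, against 22.1% of the other intergenic loci. Only 3 of the 1024 loci overlapped a named locus of the deposited tables itself, so the intronic and exonic loci lie in parts of GENCODE models that the tables' named loci do not cover. Of the exonic loci, 61 fell on exons of protein-coding genes, 32 on those of lincRNA genes and the rest on other gene types. Of the 272 intronic loci, 210 were in protein-coding genes. For 63.4% of the 1024 the nearest named locus was itself above 0 in all 8 libraries, against 18.4% of the other loci. These shares are descriptions, since detection in all 8 libraries chose the loci.

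**Figure D1:**
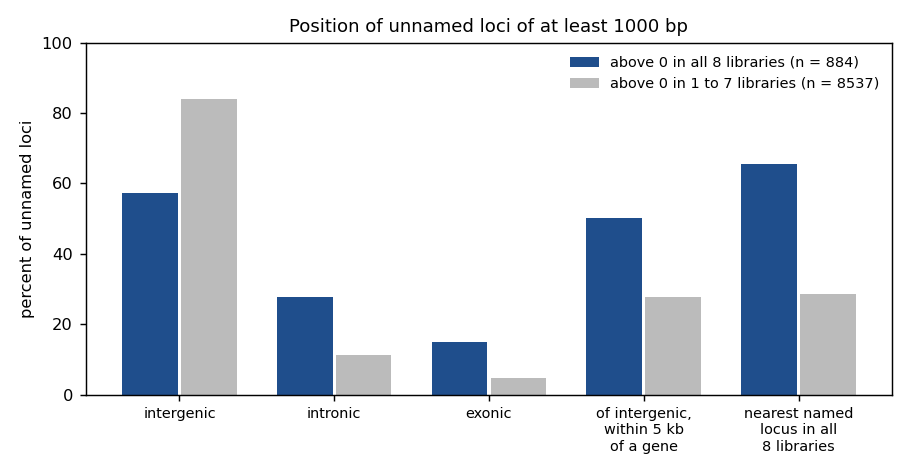
Bars give the percent of unnamed loci of at least 1000 bp in each position class, for loci above 0 in all 8 libraries (blue, 884) and in 1 to 7 libraries (grey, 8537). The blue bars are lower for intergenic loci (57.2% against 83.9%) and higher in the other 4 classes, up to 65.4% against 28.5% for a nearest named locus above 0 in all 8 libraries.

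Chromosomes 12 and 9 held the most loci, 86 and 85. A further 8 lay on chromosome Y, although all mice were female per the labels, and reads of near-identical sequence elsewhere cannot be told apart from theirs, so their values are uncertain. Loci at most 20 kb apart were joined into runs: 577 runs resulted, of which 396 were single loci, and 34 runs of 5 or more held 259 loci. The longest runs had 18 loci each, in introns of the histone deacetylase gene Hdac9 and of Maml2, a coactivator of Notch signalling, followed by 16 each at Foxn3, a forkhead repressor, and at Fry.

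Median levels over the 8 libraries ran from 0.290 to 20430 FPKM, with a median of 4.34 FPKM. Most loci were low: 447 lay between 2 and 5 FPKM, 135 below 2, 5 between 100 and 1000, and 6 above 1000 FPKM. The last were short, with a median length of 212 bp, and FPKM is uncertain for loci no longer than a sequenced fragment. The highest was XLOC_232438 on chromosome 18 (chr18:68692061-68692316, 256 bp, intergenic, 47084 bp from Mir6356). It measured 6894 and 11330 FPKM in Sle1b non-GC, 67600 and 29140 in Sle1b GC, 7664 and 11730 in Ifnar1KO non-GC, and 56270 and 36090 in Ifnar1KO GC cells (batches 1 and 2). All 4 GC libraries exceeded all 4 non-GC libraries, yet the difference did not pass the test described below (log2 2.29, SE 0.65; limma, adjusted p = 0.054).

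XLOC_427951 (chr8:15519769-15520124, 356 bp, intergenic) measured 1504 and 2996 FPKM in Sle1b non-GC, 26590 and 8938 in Sle1b GC, 569 and 647.9 in Ifnar1KO non-GC, and 6352 and 4159 in Ifnar1KO GC cells. Within each genotype and batch the GC library was higher, and within each cell type and batch the Ifnar1KO library was lower. The GC difference passed the test (log2 2.97, SE 0.48; limma, adjusted p = 0.00779), whereas the genotype difference did not (log2 -1.69, SE 0.48; adjusted p = 0.998). XLOC_169816 on chromosome 15, XLOC_283250 on chromosome 3 and XLOC_184690 on chromosome 16 were also higher in GC cells, by log2 2.37 (SE 0.49; limma, adjusted p = 0.0184), 1.84 (SE 0.45; 0.0323) and 2.08 (SE 0.44; 0.0196). XLOC_020112 (chr1:102628191-102628331, 141 bp) measured 28320, 179300, 24280 and 96740 FPKM in the 4 groups of batch 1, in the order used above, and 2784, 8629, 3077 and 3042 FPKM in batch 2. It differed between batches, which were normalized separately, more than between cell types and did not pass the test (log2 1.57, SE 0.61; adjusted p = 0.132).

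**Figure D2:**
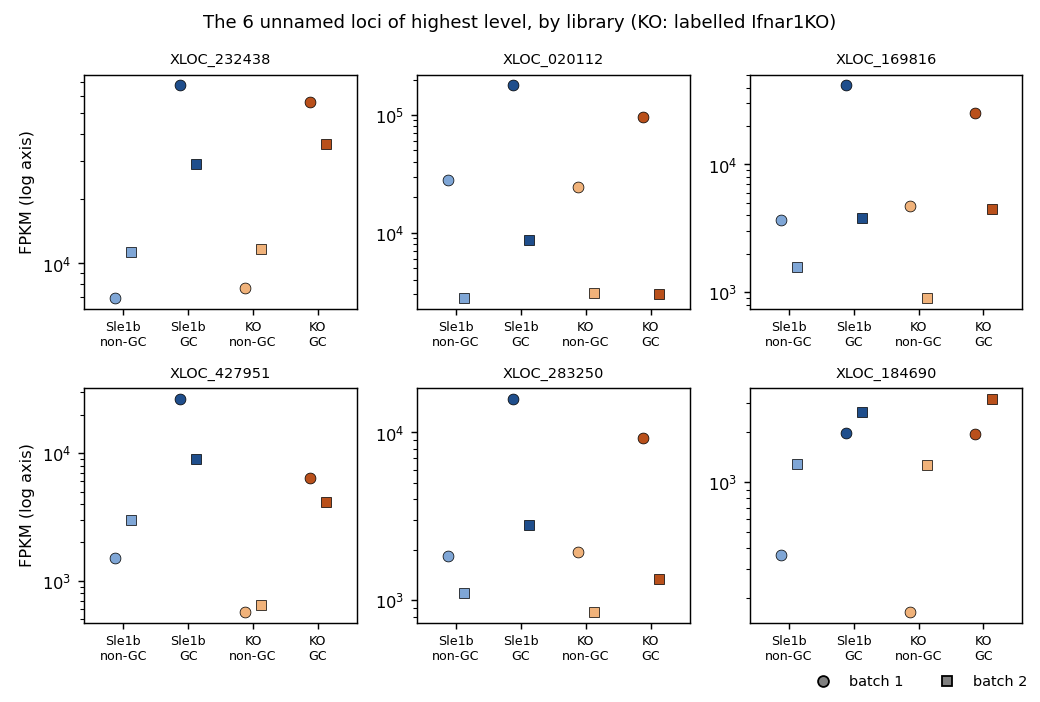
FPKM on a log axis in the 8 libraries for the 6 loci of highest median level, with circles for batch 1 and squares for batch 2, and 1 column per group. XLOC_427951 rises from 569 to 2996 FPKM in non-GC to 4159 to 26590 FPKM in GC cells, and XLOC_020112 separates by batch.

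A mitochondrial locus with mt-Co1 and its neighbours moved with these 6 loci in batch 1: it measured 27050 and 26940 FPKM in the non-GC and 239200 and 134800 FPKM in the GC libraries of Sle1b and Ifnar1KO, against 44180, 28280, 39060 and 37500 FPKM in batch 2. Its part in their GC difference was not tested. The named locus whose pattern over the 8 libraries was most like that of XLOC_232438, out of 8553, was Dock9 (Pearson r = 0.989 of log2 values centred within batch; a description). Dock9, an activator of the GTPase Cdc42, ranged over 1.68 to 3.09 FPKM in non-GC libraries and 4.92 to 8.18 FPKM in GC libraries.

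The main comparison was between GC and non-GC cells, averaged over the genotypes. It used limma on log2(FPKM + 1) with batch as a block over the 8 libraries, all 9600 loci above 0 in all 8, named ones included, and Benjamini-Hochberg adjustment with a threshold of 0.05. A log2 difference is thus on the log2(FPKM + 1) scale, which understates changes of low loci. At this threshold 128 of the 1024 loci (12.5%) differed, against 8.23% of all loci tested and 7.72% of the 8553 named loci. Of these, 48 were higher in GC cells (4.69%, against 2.89% of all) and 80 were lower (7.81%, against 5.34%). In such bulk samples fewer cells with a transcript and less of it per cell cannot be told apart. The median log2 difference was -0.33 over the 1024 and -0.28 over all loci tested. With libraries centred on their medians the median over all loci was -0.07 and that over the 1024 was -0.11, and the calls split into 60 higher and 53 lower.

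The 4 pairs of a GC and a non-GC library of the same genotype and batch were also compared 1 by 1. In batch 1 the median log2 difference was -0.59 in Sle1b and -0.44 in Ifnar1KO, and in batch 2 it was -0.14 and -0.23. Named loci had medians of -0.24, -0.55, 0.02 and -0.25. In all 4 pairs 107 of the loci were higher (10.4%, against 9.46% of all loci tested) and 239 lower (23.3%, against 22%). By more than 1 log2 unit in all 4 pairs, 36 were higher (3.52%, against 1.76%) and 52 lower (5.08%, against 2.56%).

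Within a single genotype few loci passed. In Sle1b 5 loci did, all higher in GC cells (0.488%, against 0.531% of all loci higher, 0.0833% lower and 0.615% in either direction), and in Ifnar1KO 7 did, 4 higher and 3 lower (0.684%, against 0.25% of all loci higher, 0.26% lower and 0.51% in either direction). These shares are near those of all loci. Each of these calls was among the 128, and 2 loci, XLOC_448772 and XLOC_448768, passed in both genotypes. The calls are sensitive to the number and kind of loci tested: with a filter of at least 1 FPKM in at least 2 libraries (53114 loci tested) no locus passed, and without a filter 12 did, all higher in GC cells. The number of calls fell by over 1.5 times without Sle1b non-GC replicate 1 or 2, or without Sle1b GC replicate 1. It fell as far without Ifnar1KO non-GC replicate 1 or 2. The sign of all 128 stayed the same, which was likely beforehand, since they were called in these libraries. The single-genotype counts move with 1 library: both are 0 without Ifnar1KO GC replicate 2, and without Sle1b non-GC replicate 1 that of Ifnar1KO is 19.

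**Figure D3:**
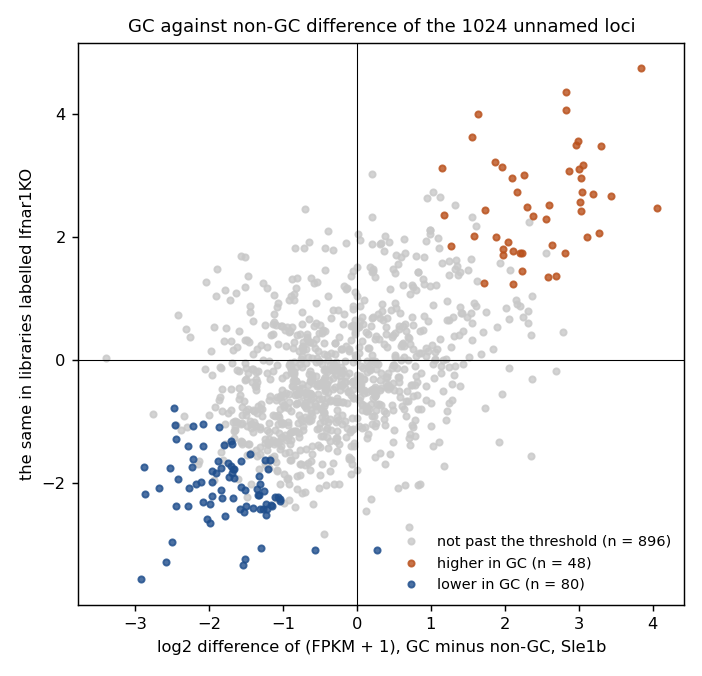
Each point is 1 of the 1024 loci, with its fitted log2 difference of GC minus non-GC in Sle1b on the x axis and in libraries labelled Ifnar1KO on the y axis. The 48 loci called higher in the mean of genotypes are orange and the 80 called lower are blue. Not every blue point lies at the lower left: XLOC_301918 is at 0.27 in Sle1b and -3.075 in Ifnar1KO.

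The locus with the largest difference was XLOC_448772 (chr8:126846497-126848034, 1538 bp), in an intron of the lincRNA gene A630001O12Rik. It measured 1.76 and 1.20 FPKM in Sle1b non-GC, 66.5 and 17.2 in Sle1b GC, 2.47 and 0.171 in Ifnar1KO non-GC, and 55.2 and 51.2 in Ifnar1KO GC cells. The lowest GC library was several times above the highest non-GC library, and the groups did not overlap. The log2 difference was 4.29 (SE 0.44; limma, adjusted p = 0.00103), with 3.83 in Sle1b (adjusted p = 0.032) and 4.75 in Ifnar1KO (adjusted p = 0.0121). Another 3 of the 5 loci in this run passed, with differences of 2.25 to 3.39. One of them, XLOC_448768, overlaps the lincRNA transcript Gm31718 shown above and measured 0.826 and 0.626, 22.5 and 11.3, 0.332 and 0.964, and 16.7 and 17.4 FPKM in the same order of groups. It too was higher in each GC library than in any non-GC library (log2 3.39, SE 0.44; limma, adjusted p = 0.00333). The named loci most like XLOC_448772 were Man2c1 (r = 0.989) and Pole (r = 0.987). Taking the highest of 8553 correlations over 8 libraries favours high values, so this is a description.

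XLOC_352686 (chr5:65857389-65858106, 718 bp) is covered by exon sequence of Gm42646 and lies 5463 bp from Rhoh, a haematopoietic gene that AID is known to mutate. It measured 0.283 and 0.335 FPKM in Sle1b non-GC, 3.67 and 17.3 in Sle1b GC, 0.226 and 0.430 in Ifnar1KO non-GC, and 43.8 and 15.4 in Ifnar1KO GC cells. Each GC value was above each non-GC value, and the non-GC values correspond to as little as 1 read (log2 3.59, SE 0.55; limma, adjusted p = 0.00576). Rhoh itself measured 9.38 to 16.4 FPKM in non-GC libraries and 16.5 to 31.1 FPKM in GC libraries (log2 0.70, SE 0.34; adjusted p = 0.215). XLOC_377122 (chr6:51146839-51147982), 121830 bp past the microRNA gene Mir148a, measured 0.480 to 2.95 FPKM in the 4 non-GC and 10.7 to 31.7 FPKM in the 4 GC libraries (log2 3.45, SE 0.50; limma, adjusted p = 0.00456). XLOC_009528 near n-R5s210 and XLOC_261755 near Mettl8 were higher by log2 3.27 and 3.12.

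A run of 6 loci upstream of Swap70 was higher in GC cells as a whole. Swap70 encodes a B cell protein that joins signalling to the actin skeleton. The run spans chr7:110169200-110206845, its locus nearest to the gene ends 14866 bp before Swap70, and all 6 loci passed with log2 differences of 2.55 to 3.27. XLOC_417519, the largest of them, measured 0.829 and 0.280 FPKM in Sle1b non-GC, 19.1 and 31.1 in Sle1b GC, 0.600 and 2.32 in Ifnar1KO non-GC, and 6.25 and 21.7 in Ifnar1KO GC cells. All GC libraries were above all non-GC libraries (log2 3.27, SE 0.48; limma, adjusted p = 0.00461). Swap70 was 59.5 to 139.8 FPKM in GC and 79.2 to 140.9 FPKM in non-GC cells, groups that overlap (log2 -0.38, SE 0.28; adjusted p = 0.412).

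Further loci rose beside genes of which some had small fitted differences. XLOC_319787 lies 13185 bp upstream of Bach2, a repressor that holds back plasma cell differentiation, and measured 0.676, 1.65, 1.27 and 0.940 FPKM in the non-GC and 19.4, 13.1, 5.13 and 24.4 FPKM in the GC libraries (Sle1b batches 1 and 2, then Ifnar1KO). Its log2 difference was 2.79 (SE 0.51; limma, adjusted p = 0.0123) and that of Bach2 was -0.01 (adjusted p = 0.993). XLOC_082141, 2499 bp past the end of Gna13, which confines B cells to the germinal centre, differed by 2.60 (adjusted p = 0.0216), and Gna13 by 0.13 (adjusted p = 0.835). A run of 9 loci between Bhlhe41 and Sspn had 3 loci that passed, at 1.80 to 2.67, and here Sspn rose as well (log2 1.87, SE 0.43; limma, adjusted p = 0.027). In a run of 5 loci in introns of Gm2619, 3 passed, at 1.98 to 2.73. The named locus of Gm2619 did not rise with them (log2 -0.42, SE 0.33; limma, adjusted p = 0.454). Gm16025, a named locus at the same coordinates (chr1:85308659-85342615), passed as higher (log2 1.61, SE 0.42; limma, adjusted p = 0.0394). XLOC_506494 (chrY:90737366-90740937), near the pseudoautosomal end of Y, rose from 13.4 to 29.1 FPKM in non-GC to 77.8 to 206 FPKM in GC cells (log2 2.88, SE 0.38; limma, adjusted p = 0.00352).

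**Figure D4:**
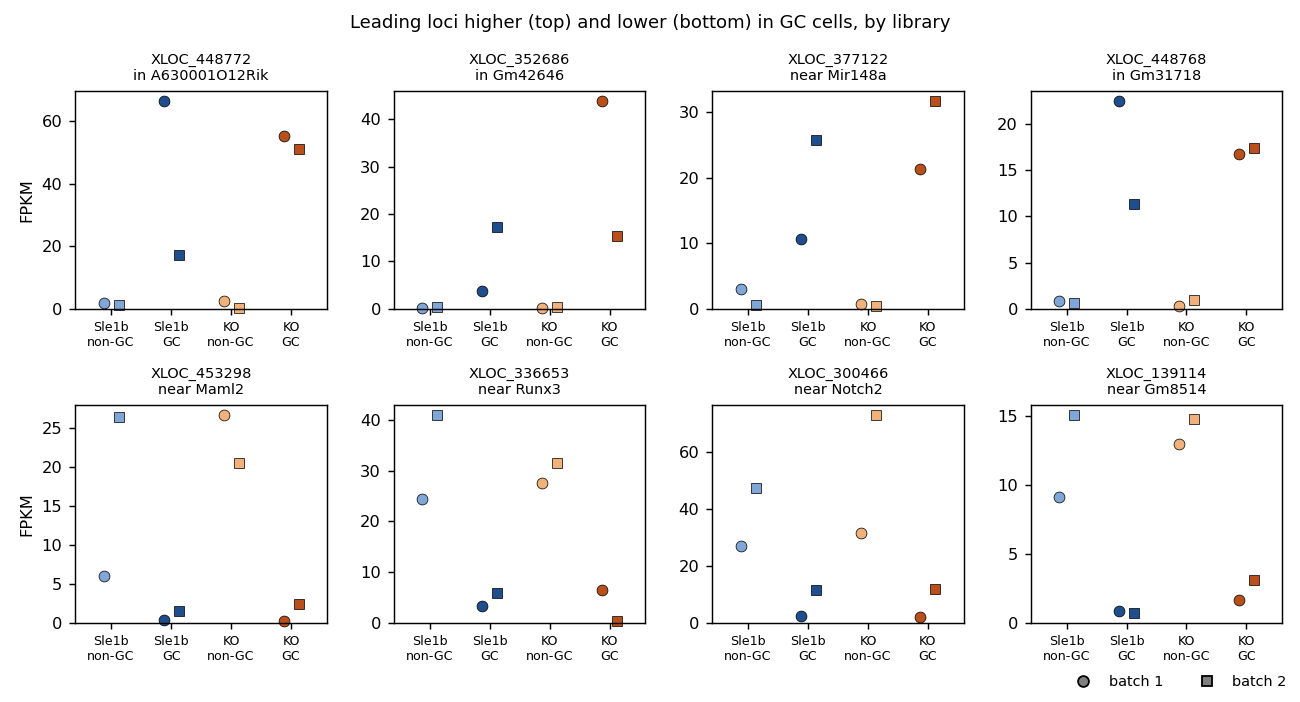
FPKM on linear axes from 0 in the 8 libraries, circles for batch 1 and squares for batch 2, for the 4 loci with the largest positive (top) and negative (bottom) GC difference. In each panel shown the GC values lie on 1 side of the non-GC values, as in XLOC_453298, with 2.40 FPKM in the highest GC and 6.01 FPKM in the lowest non-GC library.

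Among the loci lower in GC cells, the largest difference was at XLOC_453298 (chr9:13296939-13297943, 1005 bp), which ends 14 bp before Maml2. It measured 6.01 and 26.5 FPKM in Sle1b non-GC, 0.345 and 1.48 in Sle1b GC, 26.7 and 20.5 in Ifnar1KO non-GC, and 0.264 and 2.40 in Ifnar1KO GC cells. All GC libraries were below all non-GC libraries (log2 -3.24, SE 0.49; limma, adjusted p = 0.0057). Maml2, whose named locus in the tables starts further into the gene, ranged over 7.84 to 10.3 FPKM in non-GC libraries and 0.0297 to 4.60 FPKM in GC libraries and did not pass (log2 -1.44, SE 0.51; adjusted p = 0.105). Phxr4, a named locus at chr9:13417019-13452514 between XLOC_453298 and that of Maml2, passed as lower (log2 -2.0, SE 0.34; limma, adjusted p = 0.00989). The named loci most like XLOC_453298 were Rps3a2 (r = 0.994) and Cacna1e (r = 0.991), again a description.

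XLOC_300466 is a long locus (chr3:97978684-98013410, 34727 bp) that ends 117 bp before Notch2, a receptor that marginal zone B cells need. It measured 26.8 and 47.4 FPKM in Sle1b non-GC, 2.35 and 11.4 in Sle1b GC, 31.4 and 73.0 in Ifnar1KO non-GC, and 2.09 and 11.9 in Ifnar1KO GC cells, from at least 291.5 reads in each. The groups did not overlap (log2 -2.73, SE 0.37; limma, adjusted p = 0.00352). Notch2 fell with it, from 25.3 to 57.9 FPKM in non-GC to 5.75 to 15.3 FPKM in GC cells (log2 -1.97, SE 0.32; adjusted p = 0.00841). XLOC_336653, 4449 bp past the end of the transcription factor gene Runx3, ranged over 24.3 to 41.0 FPKM in non-GC libraries and 0.311 to 6.54 FPKM in GC libraries (log2 -2.93, SE 0.54; limma, adjusted p = 0.0125), and Runx3 did not pass (log2 -0.62, SE 0.39; adjusted p = 0.346). XLOC_139114 near Gm8514, XLOC_178044 in an intron of Ppp6r2 and XLOC_301060 near Gm12490 fell by 2.52, 2.43 and 2.41 on the log2 scale.

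Runs of loci also fell together. At Foxn3, 8 of 16 loci passed, at -2.17 to -1.48, and none of the 16 had a fitted difference above 0. The named Foxn3 locus, which covers chr12:99194980-99450111 and stops short of the run at chr12:99451152-99563315, fell by 1.84 on the log2 scale (SE 0.48, limma, adjusted p = 0.0428). Gm19898, a named locus at the same coordinates as Foxn3, did not pass (log2 -1.19, SE 0.41, limma, adjusted p = 0.0981). At Maml2, 5 of 18 loci, 17 of them intronic, and 3 of 3 at its start passed. At St3gal1, a sialyltransferase gene, 5 of 8 passed and the gene fell by 1.56 (limma, adjusted p = 0.0262). All 5 loci beside Zfp831 and all 4 beside Gm1966 passed, and these named loci fell by 1.64 (limma, adjusted p = 0.0186) and 1.71 (adjusted p = 0.0109). In 6 of 7 loci at Gm47780, Gm47782 and Gm8514 on chromosome 14, a stretch with no tested named locus, the difference was -2.52 to -1.81. In contrast, 1 of 18 loci of the main Hdac9 run passed and the Hdac9 locus did not (log2 -0.14, SE 0.33; adjusted p = 0.822).

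**Figure D5:**
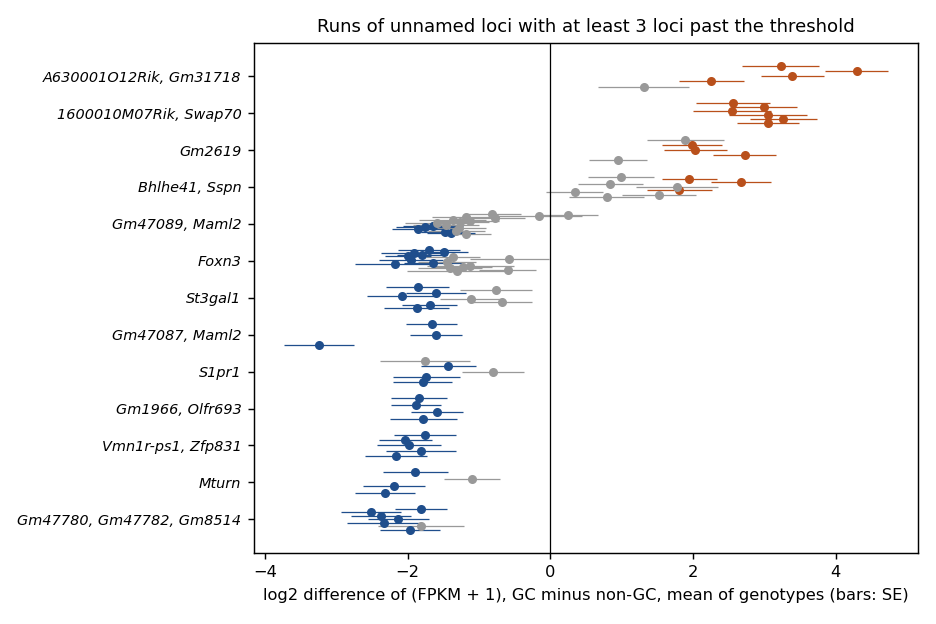
Fitted log2 difference of GC minus non-GC, mean of genotypes, with SE bars, for each locus of the 13 runs with at least 3 loci past the threshold, labelled by GENCODE genes. Orange and blue points passed as higher and lower and grey points did not, and in each run the points that passed share 1 side of 0.

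In all, 76 runs held a called locus, 34 with higher and 42 with lower loci, and none held both. In 20 runs with 2 or more calls lay 72 of the 128 called loci, which are therefore not independent of each other. By length, 18 of 140 loci under 1000 bp were higher and 3 lower, and of 145 loci of 5 kb or more 3 were higher and 40 lower. By place, there were 37 higher and 43 lower among 611 intergenic, 8 and 27 among 272 intronic, and 3 and 10 among 141 exonic loci. These are 13.1%, 12.9% and 9.22% called, against 12.5% of the 1024. By median level, 5.93% were called under 2 FPKM and 42.9% at 20 FPKM or more. Such splits were not made over all loci tested, so whether they are particular to these loci was not tested. Longer loci hold more reads at a given FPKM, and the part of depth in the split by length was not tested.

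Genes beside the loci were mostly lower, whether or not the locus passed, and so were the loci tested in general. Of all 9600 loci, 35.39% had a difference above 0 and 5.34% passed as lower, and 5.05% of the 8553 named loci did. The counts below were not tested against these shares. A GENCODE gene at or within 50 kb was matched to a tested named locus for 52 of the 80 lower loci (24 genes), and the gene was below 0 for 50 and passed as lower for 28 (10 genes). Over all 1024 loci the gene was below 0 for 443 of 572 and passed as lower for 79, and beside loci that did not pass it was below 0 for 380 of 501 and passed as lower for 51. Beside lower loci it passed as higher for 1 locus, XLOC_206961, which ends 663 bp before Vars, the valyl tRNA synthetase gene: the locus fell by 1.64 on the log2 scale (limma, adjusted p = 0.0205) and Vars rose by 1.3 (adjusted p = 0.042). For the 48 higher loci a gene was tested for 19 (12 genes), with 6 above 0, and Sspn, beside 2 of them, was the only one that passed. The median difference was -1.25 over the genes of lower loci and -0.03 over those of higher loci, against -0.37 over the 310 genes of all 572 loci with one. Across these 572 loci the differences of locus and gene had r = 0.452, a description in which several loci share a gene.

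Loci near genes of the B cell lists were counted next, against 4.69% higher and 7.81% lower of the 1024 loci and 2.89% and 5.34% of the 9600. The counts are small and were not tested against these shares. Of 12 resting B cell genes, 4 had a locus within 50 kb (Btg1, Ccr7, Gpr183 and S1pr1), 12 loci in all, of which 4 were lower and none higher. At S1pr1, the egress receptor, 3 of 5 loci were lower, at -1.79 to -1.43, and the gene fell by 1.49 (limma, adjusted p = 0.022). XLOC_080811, 19497 bp upstream of the homing receptor gene Ccr7, measured 6.94, 23.6, 9.33 and 20.8 FPKM in non-GC and 1.51, 7.66, 1.98 and 1.64 FPKM in GC libraries, which overlap between batches but not within them (log2 -2.0, SE 0.47; adjusted p = 0.0272). Ccr7 fell by 1.76 (limma, adjusted p = 0.0361). Of 21 genes known as AID targets, 8 had 15 loci within 50 kb, of which 3 were higher (at Bach2 and Rhoh) and none lower. Of 14 germinal centre genes S1pr2 alone had a locus, which did not pass, and no interferon-stimulated gene of 16 had one. The 6 plasma cell genes had 1 locus near them (at Xbp1), which did not pass. The T cell, myeloid, erythroid and platelet, and named noncoding RNA lists had none.

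None of the 1024 loci passed between genotypes, nor did any of the 9600 loci tested (0% in each comparison; limma). At an unadjusted p under 0.05, 19 of the 1024 differed in non-GC cells, 106 in GC cells and 56 in the mean of cell types, against 127, 903 and 432 of the 9600. The lowest adjusted p among the 1024 was 0.385 in the mean of cell types and 0.168 in GC cells. In all 4 pairs of cell type and batch 80 loci were higher in Ifnar1KO (7.81%, against 7.06% of all loci) and 42 lower (4.1%, against 5.2%). By more than 1 log2 unit in all 4 pairs, 4 were higher (0.391%, against 0.0833%) and 2 lower (0.195%, against 0.0417%). The median log2 difference was 0.10 in non-GC and 0.08 in GC cells, against 0.15 and -0.15 over the 9600 loci. With centred libraries it was -0.03 and 0.25, against 0.01 and 0.02.

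The loci with the largest consistent genotype difference are described although they did not pass. XLOC_200100 (chr16:98076299-98079363), in an intron of A630089N07Rik, measured 0.666 and 1.19 FPKM in Sle1b non-GC, 0.2998 and 0.3537 in Sle1b GC, 4.41 and 8.92 in Ifnar1KO non-GC, and 5.88 and 8.68 in Ifnar1KO GC cells. All 4 Ifnar1KO libraries were above all 4 Sle1b libraries (log2 2.28, SE 0.39; limma, adjusted p = 0.385). XLOC_140083, in an intron of Usp54, measured 1.01, 2.90, 0.381 and 5.72 FPKM in the Sle1b and 5.03, 34.8, 19.9 and 18.6 FPKM in the Ifnar1KO libraries, which overlap between batches (log2 2.56, SE 0.52; adjusted p = 0.754). In the other direction, XLOC_239293 (chr19:12522681-12537585, 14905 bp), which overlaps the pseudogene Gm6545, measured 19.2 and 25.1 FPKM in Sle1b non-GC, 3.52 and 9.99 in Sle1b GC, 2.32 and 3.04 in Ifnar1KO non-GC, and 0.916 and 2.65 in Ifnar1KO GC cells. Each Sle1b value was above each Ifnar1KO value (log2 -2.03, SE 0.43; limma, adjusted p = 0.754). The other 5 loci named by the same rule, near Pfas, in Sipa1l2, near Uvrag, at XLOC_427951 and near Unc93b1, had log2 differences of 1.91, 1.86, -1.72, -1.69 and -1.55.

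No locus passed in the test of whether the GC difference itself depended on genotype (0% of the 9600; limma, lowest adjusted p 0.805), with 53 of 1024 and 497 of 9600 at an unadjusted p under 0.05. The median of this interaction was -0.06, and 0.24 with centred libraries, against -0.29 and 0.01 over the 9600 loci. XLOC_402151, between Cd79a and Rps19, showed the largest positive value: it measured 8.08 and 24.6 FPKM in Sle1b non-GC, 0.372 and 0.532 in Sle1b GC, 3.63 and 1.82 in Ifnar1KO non-GC, and 2.85 and 2.59 in Ifnar1KO GC cells (log2 3.44, SE 0.93; limma, adjusted p = 0.939). XLOC_360507 near Gm10416 measured 13.8 to 39.5 FPKM in 6 libraries and 1.95 and 1.78 FPKM in Ifnar1KO GC cells (log2 -3.42, SE 0.77; adjusted p = 0.805). Among loci called in Ifnar1KO, XLOC_175600 and XLOC_301918 fell by 3.08 in GC cells there (limma, adjusted p = 0.033 and 0.0456), against -0.57 and 0.27 in Sle1b, and the tests of the difference gave adjusted p = 0.939 and 0.806.

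Batch 3 was not used in choosing the loci. There 753 of the 1024 were above 0 in Sle1b non-GC, 674 in Sle1b GC, 687 in Ifnar1KO non-GC and 482 in Ifnar1KO GC cells. In all 4 libraries 303 (29.6%) were above 0 and in none 91 (8.89%). These shares lie near those of 8556 named loci above 0 in all 8 libraries, 3 with a failed estimate included (28.3% and 8.49%). Unnamed loci above 0 in 1 to 7 libraries, which are shorter, had 10.2% and 35.1%. The 1269 of them above 0 in 7 libraries were closer, at 16.5% and 17.1%. Loci above 0 in all 4 were longer (median 2743 bp) than those above 0 in none (1210 bp). Of the 48 loci higher in GC cells, 37 were above 0 in both Sle1b libraries of batch 3 and 25 of these were higher in GC, and 18 of 29 were in Ifnar1KO, against 283 of 551 and 176 of 383 over all of the 1024 loci. Of the 80 lower loci, 40 of 59 were lower in Sle1b and 27 of 41 in Ifnar1KO, against 268 of 551 and 207 of 383.

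At the edge of the rule, XLOC_449674 over Zc3h12c was listed at 0 in 2 of 3 tables of Ifnar1KO GC replicate 1 and at 9.73e-05 FPKM in the third, and XLOC_037535 over Prep measured 0.00419 FPKM in Sle1b non-GC replicate 2. XLOC_030706 near Gm37294 was at 0.0338 FPKM in Ifnar1KO GC replicate 1. Just outside, XLOC_209238 near Bicral was at 0 in Ifnar1KO GC replicate 1 and at 16.3 FPKM or more in the other 7 libraries. XLOC_467665 near Morf4l1 and XLOC_424158 near Jund, each at 0 in 1 library, were at 11.2 and 9.98 FPKM or more in the rest.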

How the data were processed

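RNA was sequenced from sorted GC and non-GC B cells of 6-month-old female mice, 12 libraries in 4 groups. Per the labels' protocols, a SMARTer kit for ultra-low input gave cDNA and Nextera XT the libraries. No label says that strand was kept, so loci on opposite strands cannot be told apart. The tools were Cuffdiff, Cufflinks 2.2.1, TopHat2 2.0.9, Bowtie2 2.1.0 and CASAVA with the build GRCm38, per the submitters' processing notes. The authors' deposited tables give FPKM of 1 library against 1 other for 506504 loci, and 17 tables were used. The direct table of both Sle1b libraries of batch 1 was not used here. The deposited p-values and q-values were not used.

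Each table was normalized on its own. A library's values in its tables differed by a constant factor, so 1 factor per library was fitted by least squares within the batch. Depth was read from low loci (800 to 2500 bp, up to 5.5 reads): 99.1% to 100% of values were whole reads within 0.1 read, and 1 read on 1 kb was worth 0.149 to 0.388 FPKM. Read numbers in the text are estimated in this way and describe depth only, and they cover counting error only. No count test was run.

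Tests used limma 3.58.1 in R 4.3.3 on log2(FPKM + 1), with variances moderated along a trend, two-sided, batch as a block, 8 libraries, 3 residual degrees of freedom, and Benjamini-Hochberg adjustment over 9600 loci at 0.05. On simulated data with 200 of 9600 loci changed in the GC comparison, it recovered 57 of 100 loci at log2 2 and 91 of 100 at log2 4, with 6 false calls. The simulated noise was drawn for each locus on its own, whereas many called loci lie in runs. The number of false calls therefore cannot be carried over to the measured data. Batch numbers match replicate numbers, and libraries of a batch deviated together from their group means (r from 0.203 to 0.313 over all loci tested). The loci, the gene lists and the rule for named loci were chosen with earlier results of these data known. Named were the 6 highest loci, the 6 largest GC differences in each direction among loci of 1 sign in all 4 pairs, the 4 largest genotype and 2 largest interaction differences in each direction by the same kind of rule, up to 6 calls of smallest adjusted p per comparison, and loci at the edge of the rule. Loci in runs, beside genes of the lists, or beside Gna13, Vars and Gm2619 were named after their values were seen. The count of loci beside the general B cell marker list is not reported here. Place was taken from GENCODE M21 gene models, promoters from RefSeq.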

Additional observations from a re-analysis of the deposited data

Results flagged for a closer look

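At 4 of the loci named in the text, the GC libraries lay on 1 side of the non-GC libraries in both Sle1b pairs and on the other side in both Ifnar1KO pairs. Among all 1024 loci, 36 were lower in both Sle1b pairs and higher in both Ifnar1KO pairs, and 30 showed the opposite. The same counts were not made over all loci tested, so whether they are unusual for these loci was not tested. The 4 loci had been named for a large interaction or genotype difference, a choice that can favour opposite signs. The interaction of genotype and cell type passed in none of the 4 (limma, adjusted p 0.805 to 0.939).

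XLOC_038979, 2065 bp past the end of Ppil4, had log2 differences of GC minus non-GC of 1.80 and 2.90 in Sle1b and -1.23 and -1.88 in Ifnar1KO (batches 1 and 2), and an interaction of -3.90 (SE 0.80). XLOC_301561, 1030 bp upstream of Ptpn22, which encodes a lymphoid phosphatase, had -2.97 and -0.82 in Sle1b and 1.76 and 1.20 in Ifnar1KO (interaction 3.38, SE 0.94). XLOC_448356, in an intron of Sipa1l2, had -0.47 and -0.95 in Sle1b and 1.96 and 2.96 in Ifnar1KO (interaction 3.17, SE 0.90). XLOC_415819, 2191 bp past the end of Uvrag, had 3.43 and 1.302 in Sle1b and -0.07 and -0.53 in Ifnar1KO (interaction -2.67, SE 1.00).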

How the results depend on the processing

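The 128 loci called between GC and non-GC cells kept their sign under every alternative run. They were called in these same libraries, so kept signs were likely beforehand and are no separate support. The number of calls did change. It was 103 with a pseudocount of 0.1, 156 with plain means over tables, 113 with libraries centred on their medians, 49 with all 12 libraries, 12 with no filter on low values (9 of them among the 128) and 0 with a filter of at least 1 FPKM in at least 2 libraries, and 33 to 119 with 1 library left out. Joining the tables locus by locus, an alternative chosen after seeing the data, gave 136. With no replicate block it was 23. In Sle1b the 5 calls became 0 with a pseudocount of 0.1, the filter, all 12 libraries, no replicate block and plain means, and 0 to 5 with 1 library left out (4 or 5 without an Ifnar1KO non-GC library, 0 or 1 without any other). In Ifnar1KO the 7 calls became 2 with a pseudocount of 0.1, 0 with the filter, all 12 libraries and no replicate block, 11 with centred libraries, and 0 to 19 with 1 library left out (19 and 17 without Sle1b non-GC replicates 1 and 2, 5 without Ifnar1KO GC replicate 1, 4 or fewer without any other). Between genotypes 1 locus, XLOC_427951, passed with no filter (adjusted p = 0.00996), and the 0 calls of the genotype and interaction comparisons stayed 0 in the leave-one-out fits. The filter and no filter test 53114 and 173221 loci in place of 9600, and otherwise the cause was not tested. None of the 44 fitted differences of named loci reversed, which was likely beforehand, since the loci were chosen from these values. With 1 library left out, 265 of their fits stayed on the same side of the threshold and 87 called ones no longer passed. In the mean of genotypes such losses were at XLOC_169816, XLOC_178044, XLOC_184690, XLOC_283250, XLOC_301060 and XLOC_336653. The lowest depth, a median of 14.3 reads in Sle1b GC replicate 1, limits the low loci, of which 239 held under 5 reads there.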
